A study of Mus musculus with 31 samples.

Results

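The cytosolic chaperone HSP90, 7 of its cochaperones and the heat shock transcription factor Hsf1 were followed through proteasome inhibition in mouse squamous cell carcinoma (SCC) keratinocytes. The members were fixed by name as Hsp90aa1, Hsp90ab1, Stip1, Ahsa1, Chordc1, Ptges3, Cdc37, Fkbp4, St13 and Hsf1. All 10 were found by their Entrez identifiers among the 20704 genes counted in ribosome-protected fragments (RPFs) and the 24593 genes counted in total RNA, and all 10 passed the filter on low counts in both. By the sample labels the cells carried HRasG12V and TgfbrIIfl/fl in every group, while the study lists both lines as TgfbrII D/D, the deleted form of that allele. Their endogenous Eif2s1, the gene for eIF2α, had been ablated with CRISPR/Cas9 and replaced by a myc-tagged lentiviral transgene under the PGK promoter. The transgene was either S51, which leaves the integrated stress response (ISR) competent, or the phospho-dead S51A, which is ISR-null. Cells received DMSO vehicle or 100 nM bortezomib, a proteasome inhibitor, for 4.5 h by the sample labels, while a legend of the study gives a slightly shorter time. RPFs were sequenced from 3 S51 vehicle libraries and from 4 libraries each of S51 bortezomib, S51A vehicle and S51A bortezomib. Total RNA was sequenced from 4 libraries of each of the 4 groups. The lines are single-cell clones and the sources do not say which clone gave which library, so a difference between S51 and S51A cannot be told apart from a difference between clones.

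HSP90 is an ATP-driven dimer that binds kinases, steroid receptors and other client proteins late in their folding. Cells hold an inducible cytosolic isoform, encoded by Hsp90aa1, and a constitutive one, encoded by Hsp90ab1. Cochaperones deliver clients, set the pace of the ATPase cycle or stabilize the closed dimer. Hsf1 is held in check by chaperones in resting cells, and when misfolded proteins draw the chaperones away it trimerizes and binds heat shock elements upstream of chaperone genes.

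RPF libraries held between 1038826 and 4902237 counts in coding sequences and total RNA libraries between 18758668 and 22994713. The S51 bortezomib RPF libraries were the shallowest, at 1038826 to 2609137 counts. Values are CPM, counts relative to library size, scaled by TMM, so a change is relative to the other transcripts of the same library, and in bulk samples fewer cells of a type and less RNA per cell cannot be told apart. Keratinocyte markers were present throughout, with a summed RPF level of the 8 markers (Krt5 and Krt14 the highest) between 25051 and 37199 CPM. The summed levels of 5 fibroblast and 4 endothelial markers did not pass 9.67 and 8.61 CPM in any RPF library, and Col1a2, Dcn and the immune markers Cd3e and Lyz2 were at 0 in every library of both kinds. One RPF library stood apart in these genes, S51 vehicle replicate 2. It held 81.2 CPM of Eif2s1 against 162 and 171 CPM in the other two S51 vehicle libraries. It was also low in Hsp90aa1, Chordc1, Ptges3, Stip1 and St13, so results of the members that rest on it are given with and without it. For further genes this was done in part. Eif2s1 total RNA lay between 282 and 314 CPM over all 16 libraries. With vehicle, Eif2s1 was higher in S51A than in S51 footprints by 0.73 ± 0.17 SE on the log2 scale (adjusted p = 0.0023, edgeR) and in the ratio of footprints to mRNA by 0.79 ± 0.16 SE (adjusted p = 0.020). Both count as calls (adjusted p under 0.05 with over 1.5-fold), and without S51 vehicle replicate 2 the values were 0.48 (adjusted p = 0.00026) and 0.55 (adjusted p = 0.0028), under 1.5-fold. A gene-level count does not show which codon 51 the transcripts carry.

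Chordc1, Stip1 and Ahsa1 rose in footprints and mRNA in both lines. Their promoter sequences (250 bases before to 50 after the start, RefSeq, GRCm38.p6) are printed to show which hold exact letters of a heat shock element. The searched pair was GAANNTTC or TTCNNGAA, in which 2 inverted GAA units face each other, and a triple was GAANNTTCNNGAA or TTCNNGAANNTTC. Each motif set is its own reverse complement, so both strands were searched, and a triple contains 2 overlapping pairs. Capitals mark the pairs. The windows are chr9:18292017-18292316 on the plus strand for Chordc1, chr19:7039977-7040276 on the minus strand for Stip1 and chr12:87266478-87266777 on the plus strand for Ahsa1, each written 5′ to 3′.
Chordc1: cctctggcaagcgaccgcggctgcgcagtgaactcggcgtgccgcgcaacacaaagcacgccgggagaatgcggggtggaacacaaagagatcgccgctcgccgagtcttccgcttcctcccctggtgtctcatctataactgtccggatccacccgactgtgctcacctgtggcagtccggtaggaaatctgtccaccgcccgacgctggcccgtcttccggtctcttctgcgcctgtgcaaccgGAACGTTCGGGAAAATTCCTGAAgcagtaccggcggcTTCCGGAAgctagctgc
Stip1: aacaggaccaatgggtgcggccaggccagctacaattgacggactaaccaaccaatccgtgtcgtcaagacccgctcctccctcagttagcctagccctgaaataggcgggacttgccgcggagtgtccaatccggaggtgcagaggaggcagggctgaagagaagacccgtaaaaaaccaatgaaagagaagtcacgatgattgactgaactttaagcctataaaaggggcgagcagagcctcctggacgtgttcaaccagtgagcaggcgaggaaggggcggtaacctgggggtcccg
Ahsa1: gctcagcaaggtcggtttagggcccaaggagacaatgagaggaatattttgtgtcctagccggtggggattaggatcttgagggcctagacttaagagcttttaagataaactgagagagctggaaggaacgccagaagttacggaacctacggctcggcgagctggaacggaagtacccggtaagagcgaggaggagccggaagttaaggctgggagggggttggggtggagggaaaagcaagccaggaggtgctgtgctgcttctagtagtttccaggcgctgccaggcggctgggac
Chordc1 held 5 pairs and 3 triples, all between position -4 and position 40 relative to the start. Stip1 and Ahsa1 held neither motif in these windows, nor did Ptges3. Cdc37 and Fkbp4, not printed, held 1 pair each, starting at -170 and -151. A pair was found in 15.1% of all 32851 promoter windows of this length and a triple in 0.603%. A match is a description of letters and not a bound site. Only exact letters were searched, so a window without a match may still hold an inexact element. Promoters of Hsp90aa1, Hsp90ab1, St13 and Hsf1 are not shown.

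Both HSP90 isoforms responded to bortezomib, and they differed in how far footprints followed mRNA. Hsp90aa1 (chr12:110691036-110696395) encodes the inducible isoform. Its RPF level was 1716, 843 and 1816 CPM in the S51 vehicle libraries and 5221, 6228, 5635 and 6063 CPM after bortezomib. In S51A cells it was 2017, 2069, 1748 and 2080 CPM with vehicle and 5258, 5438, 4790 and 5888 CPM with bortezomib. Every bortezomib library lay above every vehicle library in both lines. Hsp90aa1 footprints rose 3.96-fold in S51 cells (log2 fold change 1.99 ± 0.17 SE, adjusted p = 9.0e-09, edgeR quasi-likelihood) and by 1.43 ± 0.15 on the log2 scale in S51A cells (adjusted p = 3.3e-07). Without S51 vehicle replicate 2 the S51 value was 1.71 ± 0.08. Hsp90aa1 mRNA moved in the same direction, from 1777 ± 29.6 to 5668 ± 377 CPM in S51 (SD, n = 4 each) and from 1992 ± 47.4 to 5131 ± 673 CPM in S51A. These are log2 changes of 1.67 ± 0.06 SE and 1.36 ± 0.06 SE.

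Hsp90ab1 (chr17:45567778-45573261) encodes the constitutive isoform. Its mRNA was 1775, 1743, 1716 and 1848 CPM in S51 vehicle libraries and 4091, 4527, 4144 and 4371 CPM after bortezomib, a rise of 2.42-fold (log2 1.27 ± 0.04 SE, adjusted p = 5.2e-18, edgeR). Its footprints in the same line went only from 3549, 3733 and 3567 CPM to 4316, 4768, 4331 and 4868 CPM. The groups did not overlap, but the log2 change of 0.34 ± 0.07 SE (adjusted p = 0.00097) stayed under the 1.5-fold threshold used for a call. In S51A cells the order of the 2 readouts was the same and the gap smaller. Hsp90ab1 mRNA went from 1722 ± 32 to 3261 ± 219 CPM (SD, n = 4 each; log2 0.92 ± 0.04 SE), and footprints from 3493, 3656, 3342 and 3537 CPM to 4927, 5388, 5055 and 5810 CPM (log2 0.59 ± 0.06 SE, adjusted p = 6.8e-07, edgeR). That footprint call in S51A sits at the threshold, and it was lost with library-size scaling alone (0.57), with a stricter count filter (0.58), and without S51A bortezomib replicate 4 (0.55) or S51A vehicle replicate 3 (0.57).

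**Figure D1:**
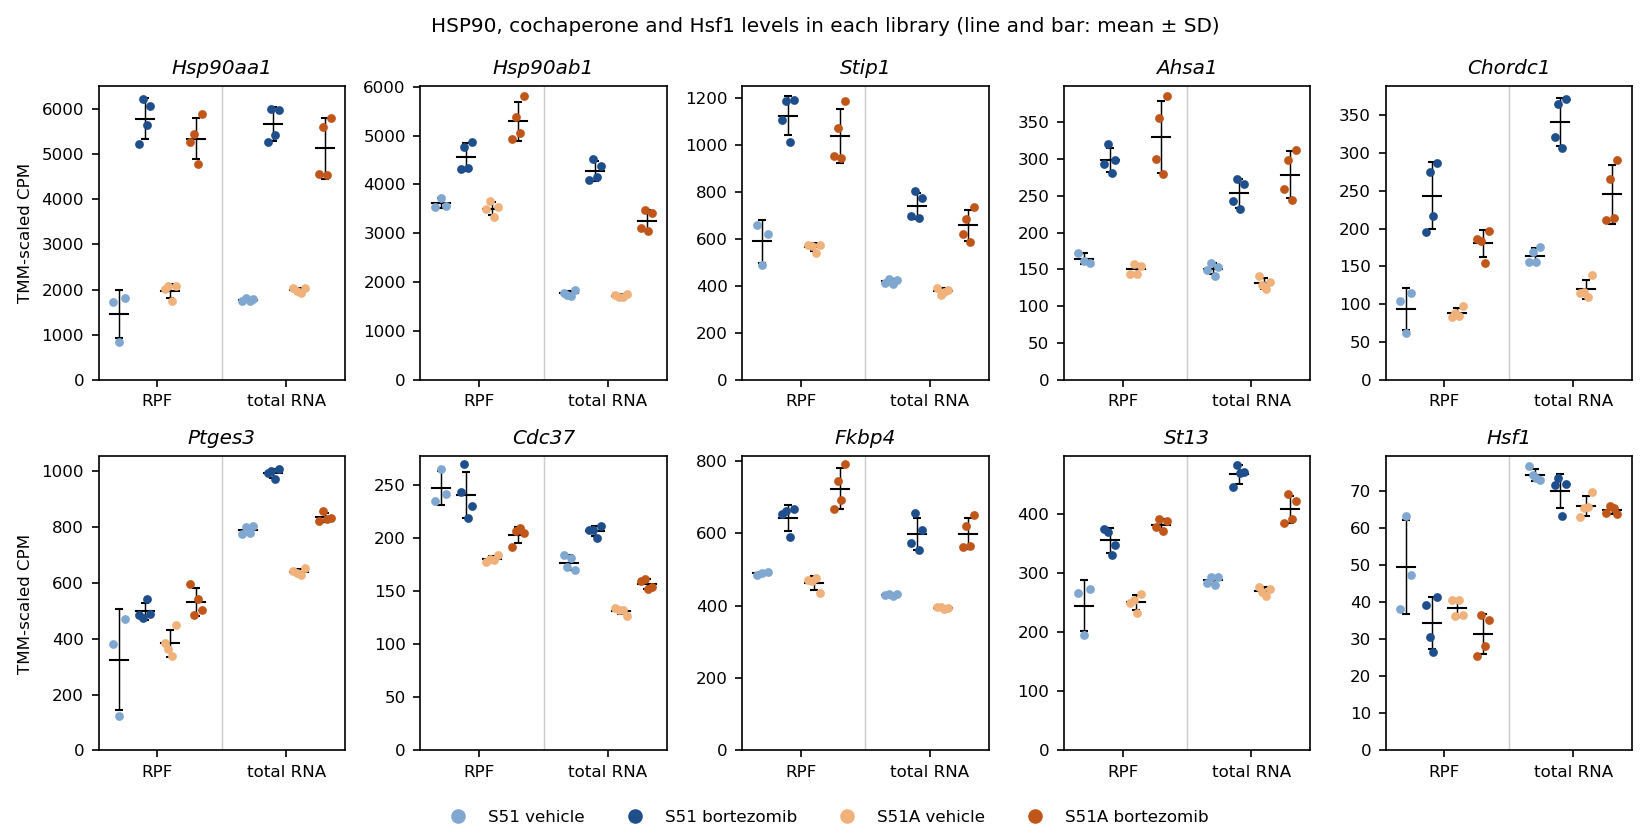
TMM-scaled CPM (y axis, linear from 0, each gene on its own scale) for the 10 genes in every RPF and total RNA library, with 1 point per library, colours for the 4 groups, and the group mean ± SD in black. Hsp90aa1 reached 5221 to 6228 CPM of footprints in S51 bortezomib libraries, and Hsf1 did not pass 76.8 CPM in any library.

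Translational efficiency (TE), the ratio of footprints to total RNA was tested in a single model over all 31 libraries, and among the members its calls fell on Hsp90ab1. The ratio of mean RPF to mean total RNA CPM of Hsp90ab1 was 2.04 in both vehicle groups, 1.07 in S51 bortezomib and 1.62 in S51A bortezomib. Its TE fell by 0.94 on the log2 scale in S51 cells (SE 0.08, adjusted p = 2.1e-11, edgeR). It was the only member called in this comparison, 1 of 10, where 4.24% of 9424 genes tested had a lower TE at the same threshold. In S51A cells the change was -0.33 ± 0.08 SE (adjusted p = 0.013), under 1.5-fold, and 0 of 10 members were called against 0.902% of all genes; at an unadjusted p under 0.05, 1 member passed. The difference between the lines was tested directly. The S51A response minus the S51 response was 0.61 ± 0.11 SE for Hsp90ab1 (adjusted p = 0.0015), the only call among the 10 members against a background of 1.29% in either direction. In the separate edgeR fits this difference was -0.35 ± 0.06 SE in mRNA (adjusted p = 0.00012) and 0.26 ± 0.10 SE in footprints (adjusted p = 0.17). The footprint response alone was thus not shown to differ between the lines. Bortezomib-treated S51A cells had a Hsp90ab1 TE 0.61 ± 0.08 SE above bortezomib-treated S51 cells (adjusted p = 9.4e-07, edgeR), again 1 call of 10 against 3.08%. St13 TE was also higher there, by 0.30 ± 0.09 SE (adjusted p = 0.047), below 1.5-fold. Without S51 vehicle RPF replicate 2, St13 was at 0.31 (adjusted p = 0.0013) and Ptges3 at 0.34 (adjusted p = 0.0084), both below 1.5-fold. Between vehicle groups the Hsp90ab1 TE difference was -0.0043 ± 0.08 SE. There 0 of 10 members were called, against 0.0849% of all genes. At an unadjusted p under 0.05, 1 member, Ptges3, passed between vehicle groups. Ptges3 TE differed by 0.52 ± 0.24 SE (adjusted p = 0.32) with all libraries, by 0.15 ± 0.10 SE (adjusted p = 0.81) without S51 vehicle RPF replicate 2, and by 0.85, a call, without replicate 3. Both TE calls between the lines lie close to 1.5-fold. Leaving out single libraries gave a difference in response between 0.56 and 0.64, with an adjusted p of at most 0.0045 in all 31 fits but a fold below 1.5 in 5 of them (without RPF S51 bortezomib replicate 1 or 3, RPF S51A bortezomib replicate 4, total RNA S51 bortezomib replicate 2 or total RNA S51A bortezomib replicate 3). The same libraries, and total RNA S51A bortezomib replicate 1, took the TE difference between bortezomib groups to 0.56 to 0.58. With library-size scaling alone the difference in response was 0.55 (adjusted p = 0.0050), also below 1.5-fold.

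Duplicate reads were marked in these tables, and whether they were left out is not given. Its part in the level of this abundant gene was not tested. The TE of Hsp90aa1 in S51 cells was 0.31 ± 0.18 SE on the log2 scale (adjusted p = 0.31) with all libraries and 0.04 ± 0.11 SE without S51 vehicle replicate 2. In S51A cells it was 0.07 ± 0.17 SE (adjusted p = 1.0). TE changes of Stip1, Ahsa1, Chordc1, Ptges3, Fkbp4, St13 and Hsf1 did not pass an adjusted p of 0.05 under bortezomib in either line with all libraries. Without S51 vehicle RPF replicate 2, St13 TE in S51 cells passed it, at -0.31 ± 0.08 SE (adjusted p = 0.0045) in place of -0.18 ± 0.10 SE (adjusted p = 0.29), still below the fold threshold. Cdc37 passed it in S51 cells at -0.27 ± 0.08 SE (adjusted p = 0.023), below the fold threshold.

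**Figure D2:**
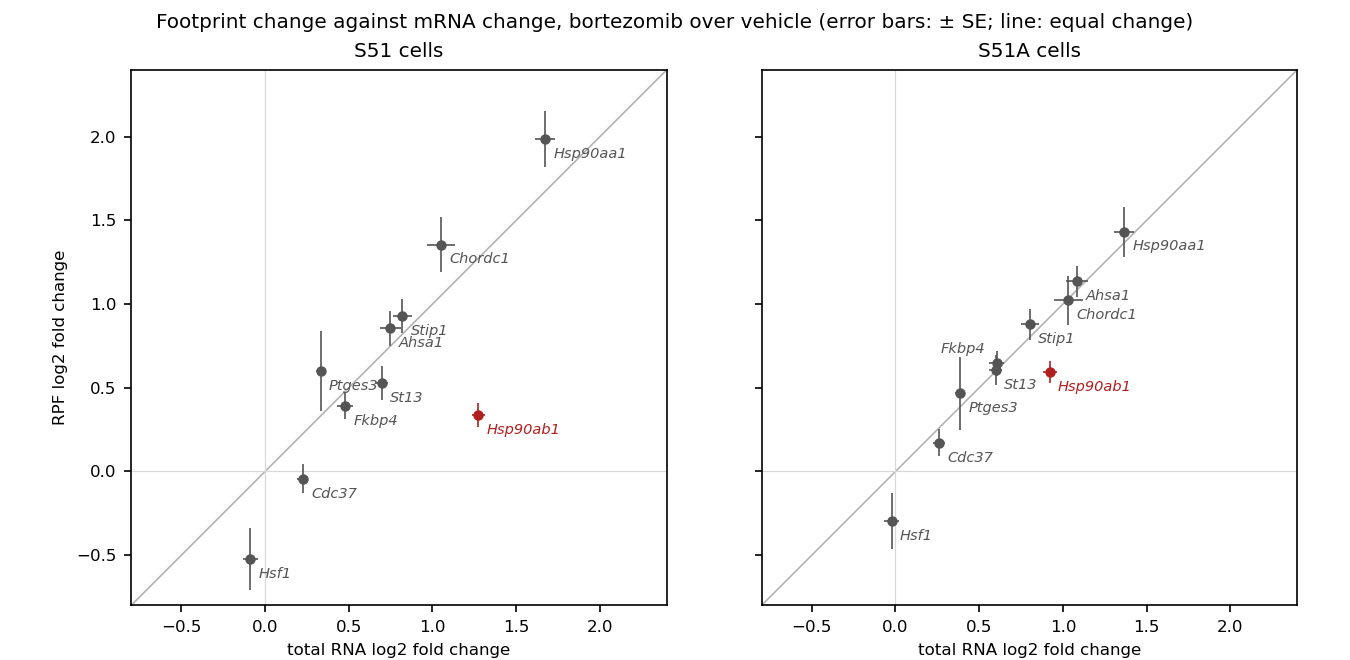
RPF log2 fold change (y axis) against total RNA log2 fold change (x axis) for bortezomib over vehicle in S51 cells (left) and S51A cells (right), with 1 point per gene, bars of ± SE and a grey line of equal change. Hsp90ab1, in red, sits at 1.27 in mRNA and 0.34 in footprints in S51 cells and at 0.92 and 0.59 in S51A cells, below the line in both.

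The share of cytosolic HSP90 counts that came from Hsp90aa1 needs no scaling between libraries, since both isoforms are counted in the same library. In footprints it was 32.6, 18.4 and 33.7% in S51 vehicle libraries and 54.7, 56.6, 56.5 and 55.5% after bortezomib. The difference of 27.6 percentage points was the largest possible separation of 3 against 4 libraries, for which an exact two-sided permutation test cannot go below p = 0.057. Without S51 vehicle replicate 2 the difference was 22.7 points. In S51A footprints the share was 36.6, 36.1, 34.3 and 37.0% with vehicle and 51.6, 50.2, 48.7 and 50.3% with bortezomib, 14.2 points higher (exact permutation p = 0.029, adjusted p = 0.038 over 8 tests, the smallest that 4 against 4 allow). In mRNA the differences were 6.83 and 7.39 points. The share went from 50.1 ± 0.71% to 56.9 ± 0.62% in S51 and from 53.6 ± 0.22% to 61.0 ± 1.63% in S51A (SD, n = 4 each; exact permutation p = 0.029 for each). Under bortezomib the lines differed in opposite directions in the 2 readouts. S51A minus S51 was 4.08 points in mRNA and -5.63 points in footprints (exact permutation p = 0.029 for each, with no overlap of libraries). With vehicle, S51A was 3.53 points higher in mRNA (exact permutation p = 0.029). In footprints it was 7.78 points higher with all libraries (p = 0.057, the smallest that the exact test allows with 3 against 4). The footprint difference was 2.86 points without S51 vehicle replicate 2.

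**Figure D3:**
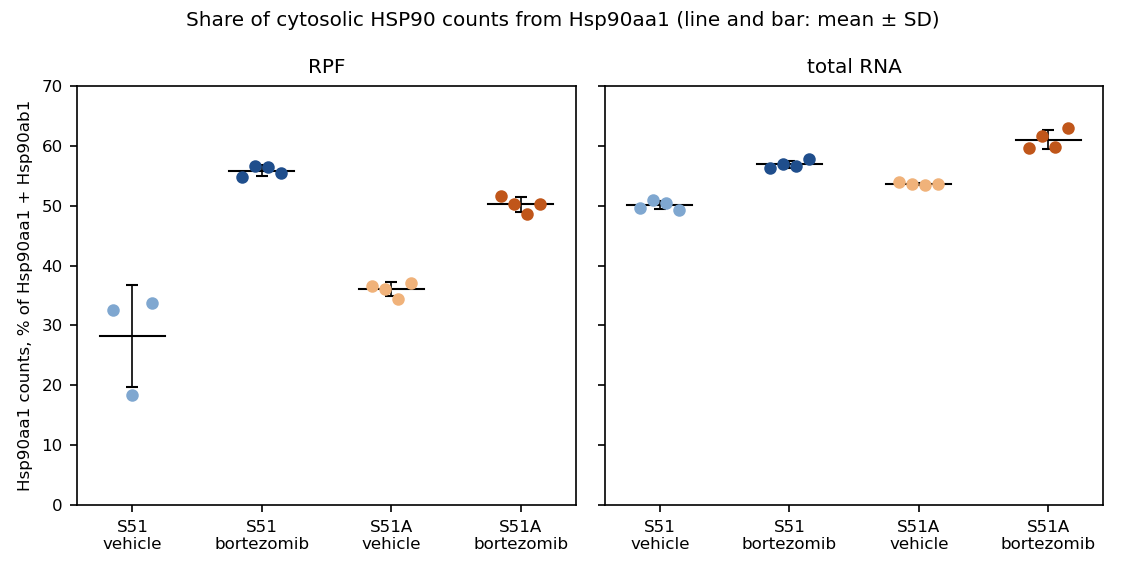
Hsp90aa1 counts as a percentage of Hsp90aa1 plus Hsp90ab1 counts (y axis, from 0) in each RPF library (left) and total RNA library (right), with 1 point per library and the group mean ± SD in black. Footprint shares rise from at most 37.0% with vehicle to at least 48.7% with bortezomib, and mRNA shares from at most 53.9% to at least 56.3%.

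Among all 10 members, 4 were called higher in S51 footprints after bortezomib (Hsp90aa1, Chordc1, Stip1 and Ahsa1), and 0 lower, where 7.38% of the 9457 genes tested were called higher. In S51A footprints 7 were called higher (these 4 with Hsp90ab1, Fkbp4 and St13) against a background of 4.19%. In total RNA 6 of 10 were called higher in S51 (Hsp90aa1, Hsp90ab1, Chordc1, Stip1, Ahsa1 and St13) and 7 of 10 in S51A (the same with Fkbp4), against 5.7% and 4.54% of 11708 genes. At the 2-fold threshold that the study used for total RNA, 3 members passed in each line, against 1.96% and 1.63% of all genes. The median log2 change of the members was 0.57 and 0.63 in S51 and S51A footprints (0.39 in S51 without vehicle replicate 2, with 4 members called) and 0.72 and 0.70 in total RNA, while the median of all genes tested lay between -0.012 and 8.7e-06.

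Among the members, the cochaperones that rose most in S51 footprints are the ATPase activator, the client adaptor and a CHORD-domain protein. Chordc1, which binds HSP90 through its CHORD and CS domains, had RPF levels of 105, 61.4 and 114 CPM in S51 vehicle libraries and 196, 275, 217 and 287 CPM after bortezomib. Its footprints rose by 1.35 ± 0.16 SE on the log2 scale (adjusted p = 1.8e-06, edgeR; 1.14 ± 0.12 SE without S51 vehicle replicate 2), and in S51A cells by 1.02 ± 0.15 SE, from between 83.2 and 97.8 CPM to between 155 and 197 CPM. No bortezomib library fell within the vehicle range in either line. Stip1 (HOP), the adaptor that passes clients from HSP70 to HSP90, rose in the footprints of both lines. In S51 it went from 661, 488 and 624 CPM to 1110, 1187, 1014 and 1194 CPM (log2 0.93 ± 0.10 SE, adjusted p = 5.0e-07, edgeR). Without S51 vehicle replicate 2 the log2 change was 0.81 ± 0.08 SE. In S51A Stip1 went from between 541 and 577 CPM to between 947 and 1187 CPM (0.88 ± 0.09 SE). Ahsa1 (AHA1), an activator of the HSP90 ATPase, went from 173, 161 and 159 CPM to 293, 320, 281 and 299 CPM in S51 footprints (0.86 ± 0.10 SE, adjusted p = 2.1e-06). In S51A cells Ahsa1 went from 143, 158, 144 and 155 CPM to 300, 355, 279 and 386 CPM (1.14 ± 0.09 SE). Messenger RNA gave like sizes for the 3 genes, with log2 changes of 1.05, 0.82 and 0.75 in S51 and 1.03, 0.80 and 1.08 in S51A for Chordc1, Stip1 and Ahsa1.

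Fkbp4 and St13 moved less. Fkbp4 (FKBP52), a peptidyl-prolyl isomerase of steroid receptor complexes, had 486 to 492 CPM of footprints in S51 vehicle libraries and 589 to 667 CPM after bortezomib (log2 0.39 ± 0.08 SE, adjusted p = 0.00074, below the fold threshold). In S51A cells it rose from between 435 and 477 CPM to between 667 and 793 CPM (0.65 ± 0.07 SE, adjusted p = 1.1e-06). Its mRNA changes were 0.48 in S51, not called, and 0.60 in S51A, called. St13 (HIP), a cofactor of HSP70 in the same client relay, had footprint changes of 0.53 ± 0.10 SE in S51, not called, and 0.61 ± 0.09 SE in S51A, called. In mRNA St13 rose in both lines, by 0.70 ± 0.04 SE and 0.60 ± 0.04 SE. Groups of either gene did not overlap between vehicle and bortezomib. The S51A calls of both genes lie at the threshold, and leaving out 1 S51A library took them to 0.56 (Fkbp4 mRNA, bortezomib replicate 4), 0.57 (St13 mRNA, bortezomib replicate 2), 0.58 (St13 mRNA, bortezomib replicate 4 or vehicle replicate 3) and 0.58 (St13 footprints, vehicle replicate 3), while St13 in S51 footprints was called, at 0.59, without vehicle replicate 1 or 3 and was at 0.39 without replicate 2. These calls differ between the lines in which side of 1.5-fold they fall on, and the tests of the difference between the lines gave an adjusted p of 0.25 for Fkbp4 and 0.83 for St13 in footprints. The St13 difference was 0.08 ± 0.14 SE, and 0.21 ± 0.10 SE (adjusted p = 0.26) without S51 vehicle replicate 2.

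Ptges3 and Cdc37 were not called under bortezomib in either line or readout with all libraries and the settings described. Ptges3 (p23) stabilizes the closed, client-bound dimer. Its S51 footprints were 381, 123 and 472 CPM with vehicle and 484, 475, 544 and 488 CPM with bortezomib (log2 0.60 ± 0.24 SE, adjusted p = 0.064), with 0.22 ± 0.10 SE without replicate 2 of the vehicle and 0.94, a call, without replicate 3. It was also called with no filter on low counts, at 0.60 (adjusted p = 0.0060), and with the replicate number as a block, at 0.66 (adjusted p = 0.036). Its mRNA was 789 ± 15.4 CPM with vehicle and 993 ± 15.5 CPM with bortezomib in S51 (SD, n = 4 each; log2 0.33 ± 0.03 SE, adjusted p = 2.8e-10), and the log2 difference in S51A was 0.39 ± 0.03 SE, both below the fold threshold. The mouse genome holds an annotated Ptges3 pseudogene, and the column names of both count tables mark reads with a unique alignment, so reads that match both equally would not be counted. Cdc37, the kinase-specific adaptor, had 235, 265 and 241 CPM of footprints in S51 vehicle libraries and 219 to 270 CPM after bortezomib, ranges that overlap (log2 -0.04 ± 0.09 SE, adjusted p = 0.74). Its mRNA changed by 0.22 ± 0.03 SE in S51 and 0.26 ± 0.03 SE in S51A.

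Hsf1 itself was not called in any comparison with all libraries. Its footprints were 38.3, 63.3 and 47.3 CPM in S51 vehicle and 39.3, 30.6, 26.5 and 41.4 CPM in S51 bortezomib libraries, and the 2 ranges overlap. The log2 change was -0.52 ± 0.18 SE (adjusted p = 0.034, below the fold threshold), and -0.35 ± 0.17 SE (adjusted p = 0.11) without S51 vehicle replicate 2, the highest of the vehicle libraries. It passed the threshold, at -0.59, -0.64 and -0.67, without S51 bortezomib replicate 1, without replicate 4, or without S51 vehicle replicate 1. In S51A cells it was -0.30 ± 0.17 SE (adjusted p = 0.22). Hsf1 mRNA stayed between 63.0 and 76.8 CPM over all 16 libraries, with changes of -0.09 ± 0.04 SE and -0.02 ± 0.04 SE. Counts of a transcript or its footprints do not measure the trimerization or DNA binding of the factor.

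**Figure D4:**
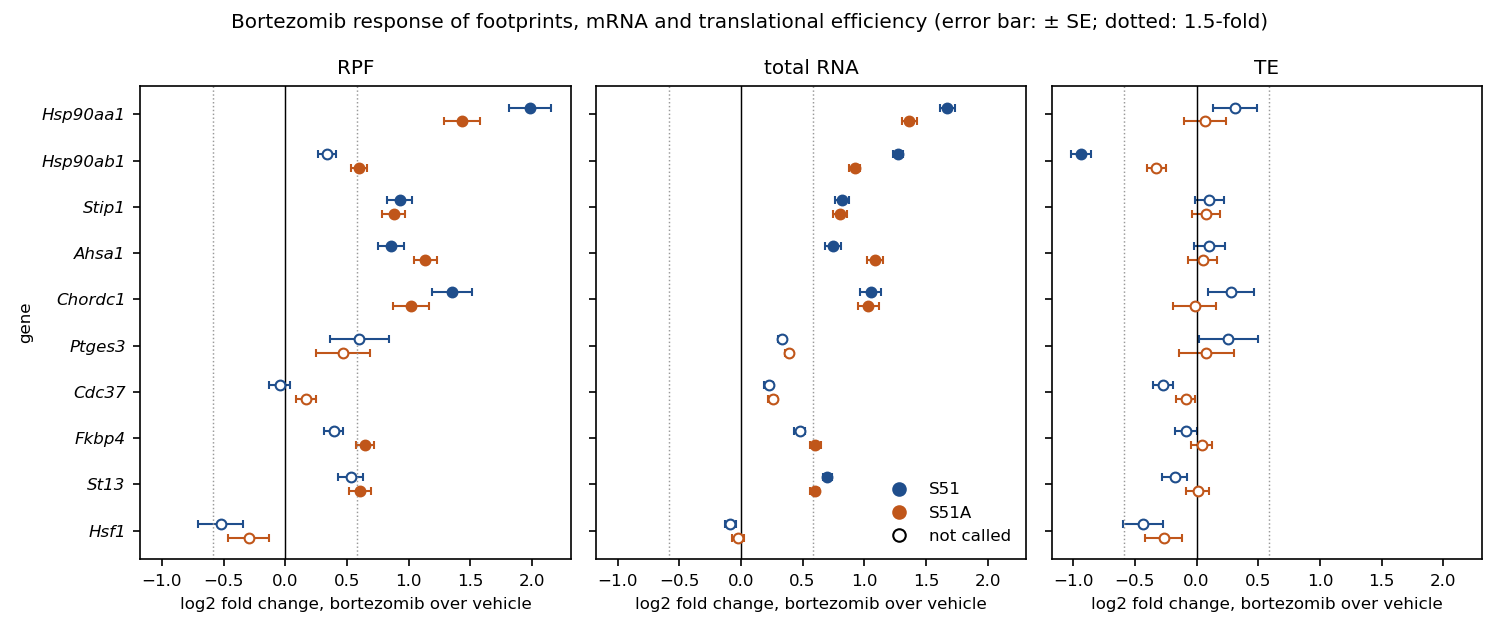
Log2 fold change of bortezomib over vehicle (x axis, the same in each panel) for the 10 genes (y axis) in RPF, total RNA and TE, for S51 (blue) and S51A (orange), with bars of ± SE, filled points for calls, open points otherwise, and dotted lines at 1.5-fold. In the TE panel the filled point is Hsp90ab1 in S51 cells, at -0.94.

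Between the lines, 0 of 10 members were called in footprints or total RNA, under vehicle or bortezomib. The background was 15.8% (vehicle) and 17.7% (bortezomib) of genes in footprints and 17.5% and 20% in total RNA, in either direction. At an unadjusted p under 0.05, 3 and 4 members passed in footprints and 9 and 9 in total RNA. In total RNA 8 of 10 members passed the adjusted p in the lower direction in S51A in each comparison, all below 1.5-fold, where 32.4% of all genes tested passed it in that direction. The sets differed. Ahsa1 and Fkbp4 passed with vehicle alone, and Hsp90aa1 and Hsp90ab1 with bortezomib alone. Hsp90aa1 mRNA was higher in S51A with vehicle (0.16 ± 0.06 SE, adjusted p = 0.019, edgeR) and lower with bortezomib (-0.14 ± 0.06 SE, adjusted p = 0.037). Cdc37 with vehicle differed by -0.45 ± 0.08 SE in footprints (adjusted p = 0.00041) and -0.43 ± 0.03 SE in total RNA (adjusted p = 1.1e-10), and its libraries did not overlap. With bortezomib Cdc37 differed by -0.24 ± 0.08 SE in footprints (adjusted p = 0.030, up to 0.11 with a library left out). In total RNA it was then at -0.40 ± 0.03 SE (adjusted p = 3.4e-10), again with no overlap in either readout. Chordc1 mRNA differed by -0.45 ± 0.09 SE with vehicle and -0.47 ± 0.08 SE with bortezomib (adjusted p = 6.4e-05 and 2.2e-05). Its footprints differed by -0.09 ± 0.16 SE with vehicle (adjusted p = 0.70) and -0.43 ± 0.14 SE with bortezomib (adjusted p = 0.028, up to 0.12 with a library left out). Ptges3 mRNA differed by -0.30 ± 0.03 SE with vehicle and -0.25 ± 0.03 SE with bortezomib (adjusted p = 1.2e-09 and 2.9e-08). Hsp90ab1 under bortezomib differed by -0.39 ± 0.04 SE in mRNA (adjusted p = 7.2e-09) and by 0.21 ± 0.06 SE in footprints (adjusted p = 0.016), with no overlap of libraries in either readout. Hsp90aa1 footprints with vehicle differed by 0.44 ± 0.16 SE (adjusted p = 0.044), by 0.16 (adjusted p = 0.10) without S51 vehicle replicate 2 and by 0.59, a call, without replicate 3.

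The response to bortezomib was also compared between the lines for every member. In footprints 0 of 10 were called, against 1.86% of genes, with 3 at an unadjusted p under 0.05; Hsp90aa1 had -0.55 ± 0.22 SE (adjusted p = 0.20) with all libraries, -0.28 ± 0.10 SE (adjusted p = 0.095) without S51 vehicle replicate 2 and -0.72, a call, without replicate 3. In total RNA 0 of 10 passed the fold threshold, against 2.09%, but 3 passed the adjusted p. The mRNA response in S51A minus that in S51 was -0.35 ± 0.06 SE for Hsp90ab1 (adjusted p = 0.00012), -0.31 ± 0.08 SE for Hsp90aa1 (adjusted p = 0.010) and 0.34 ± 0.09 SE for Ahsa1 (adjusted p = 0.0090). Both HSP90 mRNAs thus had the smaller response in S51A cells and Ahsa1 mRNA the larger one. All these comparisons reuse the same vehicle and bortezomib libraries.

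Footprint levels were ranked between genes after division by counted coding length, here as mean CPM per kilobase. The length was not corrected for stretches where reads have no unique alignment. This can lower genes with a close copy, such as Ptges3 and the HSP90 isoforms, and its size was not tested. In S51 vehicle cells the order was Hsp90ab1 (1710), Ptges3 (770), Hsp90aa1 (681), Stip1 (376), Fkbp4 (372), St13 (232), Cdc37 (201), Ahsa1 (172), Chordc1 (99.9) and Hsf1 (31). Libraries of Ptges3 and Hsp90aa1, of Hsp90aa1 and Stip1, of Stip1 and Fkbp4, and of St13 and Cdc37 overlapped when all 3 libraries were used. Neighbours were measured in the same libraries, and their order within libraries was not tested. Each of these overlaps came from replicate 2. In the other 2 libraries the order was the same and no neighbours overlapped, with Ptges3 at 901 and 1116, Hsp90aa1 at 801 and 848, Stip1 at 397 and 420, Fkbp4 at 369 and 374, St13 at 252 and 259 and Cdc37 at 191 and 197 CPM per kilobase. Within replicate 2 Hsp90aa1 (394) was still above Stip1 (310). The other pairs were reversed there, with Ptges3 (291) below Hsp90aa1, Stip1 below Fkbp4 and St13 (185) below Cdc37 (216 CPM per kilobase). After bortezomib Hsp90aa1 led in S51 cells at 2702 ± 211, above Hsp90ab1 at 2161 ± 136 CPM per kilobase (SD, n = 4 each), with no overlap. In S51A bortezomib cells the isoforms overlapped, at 2495 ± 212 for Hsp90aa1 and 2503 ± 187 for Hsp90ab1. Ahsa1 passed Cdc37 in S51 cells, at 312 against 196 CPM per kilobase. The members together took 0.652 to 0.785% of RPF counts in S51 vehicle libraries and 1.32 to 1.47% after bortezomib, and 0.706 to 0.786% in S51A vehicle libraries, each of the S51A bortezomib libraries being at 1.28% or more. The region counted for total RNA is not given in the sources used here, so no ranking was made there.

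Further genes of the chaperone system were read from lists. Of 30 other HSP90 paralogues and cochaperones, 28 were tested in footprints, and 3 were called higher and 1 lower in S51 and 2 higher in S51A, with median log2 changes of 0.08 and 0.05. Over all genes 7.38% were called higher and 11.2% lower in S51 and 4.19% higher in S51A, so the share called in this list was near that of all genes or below it. Ahsa2, a homologue of Ahsa1, rose by 1.81 ± 0.21 SE in S51 and 1.82 ± 0.18 SE in S51A footprints, and by 1.73 and 1.79 in mRNA. Its S51 footprint change was 1.65 ± 0.19 SE without S51 vehicle replicate 2. Hsp90b1 (GRP94), the isoform of the endoplasmic reticulum, rose by 1.08 ± 0.17 SE and 0.61 ± 0.15 SE in S51 and S51A footprints. The folliculin partners Fnip1 and Fnip2, which slow the HSP90 ATPase, moved apart in S51 footprints, at 0.85 ± 0.24 SE and -0.72 ± 0.20 SE. Without S51 vehicle replicate 2 Fnip1 was at 0.57 ± 0.19 SE, just under 1.5-fold, which left 2 genes of the list called higher. Fkbp5, the immunophilin relative of Fkbp4, was lower in S51A than in S51 mRNA by vehicle (-0.73 ± 0.04 SE) and bortezomib (-0.85 ± 0.04 SE). No gene of this list was called in TE in any comparison, where between 8 and 498 of 9424 genes were called. At these shares a list of 28 genes would hold few calls or none.

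Of the 7 genes around Hsf1, 2 passed the filter in footprints. Hsf2, the paralogue that can form trimers with Hsf1, rose by 1.09 ± 0.21 SE in S51 and 1.18 ± 0.18 SE in S51A footprints and by 1.06 and 1.13 in mRNA. Hsbp1, a small binding partner of HSF trimers, was at 0.03 ± 0.11 SE and 0.20 ± 0.10 SE, not called. The median of these 2 genes in S51 footprints was 0.56, and 0.40 without S51 vehicle replicate 2, with 1 gene called higher each time. Of 12 other heat shock genes, 10 were called higher in S51 and 11 in S51A footprints, with medians of 1.75 and 1.90. Over all genes 7.38% and 4.19% were called higher. Hspa1a and Hspa1b, the inducible HSP70 pair, led with 7.43 and 4.96 in S51 and 6.78 and 4.49 in S51A. They are near-identical copies, and reads that match both equally would not be counted. The values of each thus rest on reads that tell the copies apart and are uncertain. Hsph1, an HSP70 nucleotide exchange factor, rose by 2.76 and 2.85, and Dnaja1, an HSP40, by 2.51 and 2.16. TE was called for 0 of the 12 under bortezomib in either line. Over all genes 498 of 9424 were called in TE in S51 and 93 in S51A, in either direction. At these shares a list of 12 genes would hold few calls or none.

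Of 18 genes for proteins known as HSP90 clients, 17 were tested in footprints. In S51 cells 5 were called lower and 1 higher (median log2 change -0.48), and in S51A 1 lower and 0 higher (median -0.08). Over all genes 11.2% were called lower in S51 and 6.67% in S51A, and the 1 of 17 in S51A is near that share. Without S51 vehicle replicate 2, 4 clients were called lower and 0 higher in S51 (median -0.22), where 9.48% of all genes were called lower. Src, a tyrosine kinase, fell by 1.42 in S51 footprints (SE 0.12) and by 0.79 in S51A (SE 0.11), with a difference in response of 0.64 ± 0.16 SE (adjusted p = 0.036), or 0.53 (adjusted p = 0.024), under 1.5-fold, without S51 vehicle replicate 2. Akt1, a serine/threonine kinase, fell by 0.88 in S51 footprints (SE 0.12), with a TE change of -0.87 ± 0.11 SE. The difference in response of Akt1 TE between the lines was 0.65 ± 0.15 SE (adjusted p = 0.0095), and without S51 vehicle replicate 2 it was 0.55 (adjusted p = 0.0092), again under 1.5-fold. These are levels of client transcripts and their footprints and not of client proteins.

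The genes whose level over libraries was most like that of Hsp90aa1 were read from Pearson's r of log2 CPM, as a description. Over 15 RPF libraries they were Dnaja1 (0.992), Vcp (0.990), Pmaip1 (0.989), Psmd12 (0.985) and Ubxn4 (0.980). Over 16 total RNA libraries they were Hspa1b (0.994), Vcp (0.992), Trp53inp1 (0.992), Psmc6 (0.992) and Gabarapl1 (0.991). All points share the contrast of treated and untreated libraries, and 168 and 507 genes had r above 0.9 in the 2 readouts. The RPF values include S51 vehicle replicate 2, and its part in this order was not tested. Among the members, Hsp90ab1 had r of 0.978 with Hsp90aa1 in total RNA and 0.843 in footprints, while St13 had 0.973 and 0.961 and Cdc37 0.485 and 0.071.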

How the data were processed

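Ribosome-protected fragments (15 libraries) and total RNA (16 libraries) were analysed from raw counts per gene deposited by the authors. Per the study's methods the authors trimmed reads with the FastX trimmer, aligned them to mm10 with bowtie2, and counted footprints of 20 to 23 or 26 to 32 nt in coding sequence without the first 15 and last 5 codons, with plastid; the submitters' processing notes also name featureCounts. Per the file headers, reads with a unique alignment were kept and duplicates marked, and total RNA runs were merged. Sample labels of S51 bortezomib and S51A vehicle were exchanged by the submitters in an update note, which was followed. Entrez identifiers were matched to symbols for 20687 of 20704 and 24569 of 24593 genes.

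Genes were filtered with filterByExpr, scaled by TMM and tested with the edgeR (4.0.16, R 4.3.3) quasi-likelihood test over all genes. TE was the interaction of library kind and group in one edgeR model over 31 libraries. A call needed a Benjamini-Hochberg adjusted p below 0.05 and a fold above 1.5. Genotype differences are S51A minus S51. The scripts were tested on simulated data. Alternatives used DESeq2 (1.42.0), limma voom (3.58.1), other scaling and filters, a replicate block and left-out libraries. The Hsp90aa1 share was tested with an exact two-sided permutation test (scipy 1.17.1).

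Replicate libraries differed beyond sampling noise, and the labels do not say whether they came from separate cultures, so p-values measure the spread between these libraries, which may be technical. Named genes were the members, up to 4 called genes per list by size of change, the 5 genes most like Hsp90aa1 in each readout, and Eif2s1. The members and lists were chosen with earlier results of these data known. Hsbp1 is named outside that rule, after its values were seen. The summed level of the immune marker list is not reported here.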

Additional observations from a re-analysis of the deposited data

Results flagged for a closer look

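One library stood apart from its group by Dixon's test among 70 groups of 4 libraries (10 genes in 7 groups), where chance alone flags about 1 in 20. Fkbp4 footprints in S51 bortezomib replicate 3 were 589 CPM against 655 to 667 CPM in the other libraries of that group. The group of 3 S51 vehicle RPF libraries, with the low values of replicate 2, is too small for this test.

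The bortezomib response differed between S51A and S51 cells by a direct test in 4 cases (edgeR quasi-likelihood, S51A response minus S51 response). The TE of Hsp90ab1 differed by 0.61. In total RNA Ahsa1 differed by 0.34, Hsp90aa1 by -0.31 and Hsp90ab1 by -0.35, all with an adjusted p below 0.05 and a fold below 1.5. Clone and genotype cannot be told apart in these differences.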

How the results depend on the processing

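The numbers of called members were recomputed with DESeq2, other size factors, other filters, fits of the compared groups alone, a replicate block and libraries left out one at a time. At a fold above 2 in total RNA 3 members were called in each line in place of 6 and 7. With library size alone 0 members were called in TE between the lines under bortezomib and in the TE response difference, where Hsp90ab1 was at 0.51 and 0.55, below 1.5-fold. That scaling shifted the median TE change of all genes by 0.15 in S51 and the median mRNA change by -0.15 in S51 and -0.12 in S51A. It moved the share of higher calls from 19.7 to 61.5% (TE, S51), 82.1 to 52.8% (TE, lines under bortezomib), 83.6 to 62.2% (TE response difference), 37.3 to 19.4% (mRNA, S51), 34.7 to 20.7% (mRNA, S51A) and 35.9 to 48.8% (mRNA response difference). It also took St13 mRNA (0.54 and 0.48), Fkbp4 mRNA in S51A (0.49) and St13 footprints in S51A (0.58) below 1.5-fold. Over all genes the TE response difference gave 122 calls, 75 with limma voom and 64 with a replicate block. TE with vehicle gave 8 calls between the lines, 14 with limma voom and 2 with the block. Footprints with vehicle gave 1495 calls between the lines and 991 when every RPF library had to hold 10 or more counts.

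Leaving out single libraries gave 4 to 6 members called in S51 footprints, 5 to 7 in S51A footprints and in S51A mRNA, and 0 to 1 members called in footprints between vehicle groups, in the footprint response difference, in TE between vehicle groups, in TE between bortezomib groups and in the TE response difference. Calls appeared without S51 vehicle RPF replicate 3, which leaves replicates 1 and 2, for Hsp90aa1 footprints (0.59 between vehicle groups and -0.72 as response difference) and Ptges3 TE (0.85 between vehicle groups). The RPF response difference over all genes then gave 383 calls in place of 176, and TE between vehicle groups 380 in place of 8. Values near 0 changed sign, with ranges of -0.10 to 0.00090 for Cdc37 footprints in S51, -0.046 to 0.0042 for Hsf1 mRNA in S51A and -0.054 to 0.019 for Hsp90ab1 TE between vehicle groups. Of 1340 single values in these fits 1306 kept direction and call, and of 476 under other settings 466 did; the cause of the others was not tested.

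Libraries share numbers between groups. With the number as a replicate block 5 members were called in S51 footprints in place of 4, Ptges3 being added at 0.66 (as it was with no filter on low counts, at 0.60), and Hsp90ab1 gave a TE response difference of 0.63; no other count of members changed. Same-numbered RPF libraries of different groups had a correlation of deviations above 0.1 in 3 of 21 pairs (7 of 63 pairs with different numbers) and total RNA libraries in 8 of 24 (0 of 72). A footprint and a total RNA library of the same group and number passed 0.1 in 8 of 15 pairs, and those with different numbers in 2 of 45. The main fits did not take the numbers as pairs. By the study, total mRNA was set aside from the lysates that were then digested for footprints. The main TE model thus leaves out a pairing of the design, and the block fit is the one that uses it. For TE the block was the lysate that the 2 libraries of a number may share. The depth of the RPF libraries limits Hsf1 most, at 25.5 to 63.3 CPM.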
